A study of Mus musculus with 9 samples.

Results

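The transcripts described here are those of 9 mouse genes that sense double-stranded RNA or answer to it, out of 24318 genes listed. They were chosen by name, with earlier values from the same libraries known: Cxcl10, Isg15 and Irf7 as induced genes, Ddx58, Ifih1, Tlr3 and Eif2ak2 as sensors, Mavs as their adaptor and Adar as the editor that marks self RNA. Because the choice drew on these measurements, their values are given as a description and without a p-value.

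Cells recognise double-stranded RNA with cytosolic helicases (RIG-I, encoded by Ddx58, and MDA5, encoded by Ifih1), with the endosomal receptor TLR3 and with the kinase PKR, encoded by Eif2ak2. RIG-I and MDA5 signal through MAVS on mitochondria to the transcription factors IRF3, IRF7 and NF-kB, which switch on interferons and chemokines such as CXCL10. Secreted interferon then acts through its receptors, JAK kinases and a transcription factor complex that includes IRF9 to raise a broad set of genes, among them Isg15, Irf7, Eif2ak2, Ddx58 and the interferon-driven isoform of Adar. ADAR1 changes adenosines to inosines in cellular double-stranded RNA and in this way keeps MDA5 and PKR from responding to it.

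RNA was sequenced from N2A cells, a mouse neuroblastoma line with no genetic change named for any condition. Cells received a control siRNA (scramble), an siRNA against EXOSC3 (siEXOSC3), a structural subunit of the RNA exosome that degrades and trims RNA, or an siRNA against DDX1 (siDDX1), a DEAD-box helicase. Each condition had 3 biological replicates and there were 9 libraries in all, transfected with a cationic lipid, depleted of ribosomal RNA and made without strand information. Values are FPKM (fragment numbers scaled to transcript length and library size) in 2 separately scaled tables, each with 1 knockdown and the same 3 scramble libraries, so each knockdown was compared with scramble inside its own table and the comparisons share their controls. An siRNA is itself a short double-stranded RNA of its own sequence, and which EXOSC3 or DDX1 siRNA was used in these libraries is not given in the sources used here. Effects of a particular siRNA and of the depletion cannot be told apart in this design. The study states a target depth per library, but FPKM holds no read number. The depth reached is therefore unknown, and values far below 1 FPKM rest on few fragments.

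Exosc3 fell to 15.5% ± 1.90 of scramble in siEXOSC3 and Ddx1 to 24.4% ± 2.99 in siDDX1 (SD, n = 3). Of 12 markers of neuroblastoma and sympathetic neurons, 11 had a scramble mean of at least 1 FPKM, and the summed level of the list was 348 to 401 FPKM in scramble, 484 to 550 FPKM in siEXOSC3 and 328 to 387 FPKM in siDDX1. The higher sum in siEXOSC3 moved together with the siEXOSC3 values below, and its part in them was not tested. Among 12 markers of microglia and macrophages, which respond strongly to RNA, only Tyrobp reached a mean of 1 FPKM in the siEXOSC3 or the siDDX1 libraries, and only Cd68 in scramble. Tyrobp was at 0.785, 0.823 and 0.843 FPKM in scramble, at 1.47, 1.83 and 2.19 FPKM in siEXOSC3 and at 2.37, 3.11 and 1.74 FPKM in siDDX1, while Itgam, C1qa and C1qb were listed at 0 in every library and Ptprc in 8 of 9. The summed macrophage list was at 1.69 to 2.66 FPKM in scramble, 2.18 to 3.14 FPKM in siEXOSC3 and 2.19 to 4.21 FPKM in siDDX1. Tyrobp lay above scramble in every library of both depletions, while Cd68 was at 54.6% of scramble in siEXOSC3 and 57.2% in siDDX1, with overlapping groups, and Csf1r, near 0 FPKM throughout, at 42.7% in siEXOSC3. The part of these differences in the values below was not tested. No fibroblast marker of 6 reached 1 FPKM.

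The sequence around the start sites was searched for motifs of the pathway. RefSeq windows from 250 bases before to 50 after the start (build GRCm38.p6) held all 9 genes, with 3 windows for Adar. They were searched on both strands for GAAANNGAAA, the core of the interferon-stimulated response element (ISRE). Of 32851 windows of this length, 3.44% held the core. In these windows 5 of the 9 genes had it, and the matches are printed because they occur in induced genes (Isg15, Cxcl10) as well as in sensors (Eif2ak2, Ifih1, Ddx58). Capitals mark the core or, for Isg15, 3 overlapping copies of it, and each line runs 5′ to 3′ on the strand of the gene. Ddx58 has the core on the opposite strand, so it reads as its reverse complement.

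Isg15 at chr4:156200871-156200900, minus strand: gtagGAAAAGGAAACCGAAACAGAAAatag
Cxcl10 at chr5:92349083-92349112, minus strand: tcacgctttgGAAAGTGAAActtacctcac
Eif2ak2 at chr17:78882535-78882564, minus strand: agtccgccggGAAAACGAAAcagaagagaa
Ifih1 at chr2:62646206-62646233, minus strand: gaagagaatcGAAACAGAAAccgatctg
Ddx58 at chr4:40239804-40239833, minus strand: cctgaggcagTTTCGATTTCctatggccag

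The copies of Isg15 lay from 78 to 57 bases before the start and the copy of Cxcl10 began 213 bases before it. Those of Ddx58, Eif2ak2 and Ifih1 began 3, 19 and 33 bases into the transcript. Cxcl10 also held 2 matches to the kappa B consensus, which NF-kB proteins bind and which 4.51% of windows contained. They are shown because Cxcl10 joins an ISRE core and kappa B sites in a single window, with the consensus in capitals.

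Cxcl10 at chr5:92349029-92349058, minus strand: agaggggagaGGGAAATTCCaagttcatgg
Cxcl10 at chr5:92348973-92349002, minus strand: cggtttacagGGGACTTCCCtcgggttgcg

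The motif TTCNNNGAA (GAS, the gamma-activated sequence) was present in 8.30% of windows and in those of Eif2ak2 and Adar. The window of Tlr3 held 1 kappa B match. Windows of Irf7 and Mavs had no match to any of the 3 motifs, which says only that these letters are not in the span searched. All tested genes with a RefSeq window were compared by the same letters. In siDDX1 the median log2 difference of the 281 genes with the core was -0.018, against -0.0021 for those without it, and 4.63% of them were decreased, against 5.08% of the 8225 genes without it. In siEXOSC3 15.4% of 286 genes with the core were decreased, against 16.1% of 8309 genes without it. For the kappa B consensus in siEXOSC3, 21.5% of 544 genes with it were increased and 12.5% decreased, against 16.0% and 16.3% of 8051 genes without it. In siDDX1 the shares were 7.08% and 4.47% of 537 genes, against 5.62% and 5.11% of 7969. The fitted members were not left out: Cxcl10, Isg15, Ddx58 and Eif2ak2 are among the genes with the core, and Cxcl10 among those with the kappa B consensus. Their values therefore enter these shares. The shares were computed with the member values already in view and carry no test.

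**Figure D1:**
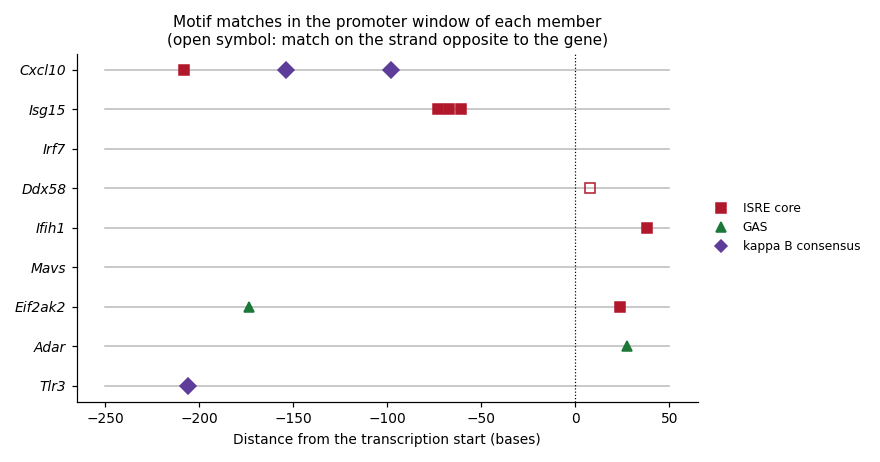
Matches to the ISRE core, GAS and the kappa B consensus in the promoter window of each gene, by distance from the transcription start in bases (0, dotted line). Isg15 has 3 overlapping ISRE cores before the start, Cxcl10 1 core and 2 kappa B matches, and Irf7 and Mavs none.

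In scramble, FPKM being a level per length, the order of the mean levels was Adar (21.0 FPKM), Eif2ak2 (13.3 FPKM), Mavs (11.6 FPKM), Ddx58 (3.40 FPKM), Cxcl10 (3.03 FPKM), Isg15 (2.83 FPKM), Irf7 (0.246 FPKM) and Tlr3 (0.0660 FPKM) in the siEXOSC3 table, and Ifih1 was listed at 0. The scramble libraries of Isg15 overlapped those of Cxcl10 and Ddx58, and no other neighbours in this order overlapped. Thus the editor, PKR and the adaptor were present at the highest levels, the induced genes were low, Tlr3 was close to 0, and what the 0 of Ifih1 means cannot be said, as the annotation behind the tables is not named. With a mean of at least 1 FPKM over the 6 libraries of a table required for the fit, 6 of 9 genes were fitted in each table. Irf7, Tlr3 and Ifih1 were not.

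Cxcl10 encodes a chemokine that draws T cells and is switched on by both interferon and NF-kB. In the siDDX1 table it was at 0.604, 0.904 and 1.75 FPKM in siDDX1 replicates 1, 2 and 3, and at 3.07, 2.85 and 3.09 FPKM in scramble. Every siDDX1 library lay below every scramble library, with a mean of 36.2% ± 19.9 of scramble (SD, n = 3) and a log2(FPKM + 1) difference of -0.98 (SE 0.183). Since RNA came from bulk culture, fewer cells making a transcript and less of it per cell cannot be told apart, here and below. In siEXOSC3 the libraries were at 1.09, 2.74 and 2.44 FPKM, against 3.09, 2.88 and 3.13 FPKM in scramble. These groups did not overlap either, but replicate 1 was far below the other two, which came close to scramble, and the log2 difference of -0.43 (SE 0.202) became -0.17 without it. The gene (NCBIM37 chr5:92775664-92777915, minus strand) lies inside Art3 on the opposite strand, whose reads cannot be told apart from it in overlapping exons. Art3 was at 0.211 FPKM in scramble, 0.540 FPKM in siEXOSC3 and 0.212 FPKM in siDDX1 on average.

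Isg15 encodes a ubiquitin-like protein that is conjugated to other proteins during the antiviral response. In siDDX1 it was at 1.32, 0.616 and 1.06 FPKM, against 2.81, 2.30 and 3.31 FPKM in scramble. All siDDX1 libraries were below all scramble libraries, at 35.7% ± 12.7 of the scramble mean (SD, n = 3), with a log2 difference of -0.93 (SE 0.159). In siEXOSC3 it was at 3.35, 2.80 and 3.93 FPKM, against 2.83, 2.32 and 3.34 FPKM. The groups overlapped, and the mean stood at 119% ± 20.0 of scramble with a log2 difference of 0.19 (SE 0.136). With quantile normalization the siEXOSC3 difference was 0.06. The gene lies at NCBIM37 chr4:155573533-155574927, minus strand, with no overlapping gene.

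Irf7 encodes the transcription factor that amplifies interferon production. It was at 0.0645, 0.172 and 0.183 FPKM in siDDX1 and at 0.189, 0.204 and 0.338 FPKM in scramble. The siDDX1 libraries were all lower, at 57.4% ± 26.9 of scramble (SD, n = 3), but replicates 2 and 3 came close to the lowest scramble library and the gene was under the level required for the fit. In siEXOSC3 the values of 0.216, 0.162 and 0.409 FPKM overlapped the scramble values of 0.190, 0.206 and 0.342 FPKM. Irf7 (NCBIM37 chr7:148448605-148452380, minus strand) overlaps Phrf1 on the opposite strand. Phrf1 was at 18.2 FPKM in scramble of the siEXOSC3 table, far above Irf7, and at 96.4% of scramble in siEXOSC3 and 109% in siDDX1.

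Among the sensors, Ddx58 overlapped scramble in siEXOSC3, with 3.58, 2.93 and 4.94 FPKM against 3.63, 3.19 and 3.39 FPKM. Replicate 3 alone was high, and the log2 difference of 0.11 (SE 0.147) became -0.05 without it. In siDDX1 the gene was at 2.16, 2.82 and 2.16 FPKM, against 3.60, 3.17 and 3.35 FPKM. Every siDDX1 library was lower, at 70.6% ± 11.3 of scramble (SD, n = 3; log2 difference -0.38, SE 0.107). Ddx58 lies at NCBIM37 chr4:40150806-40186861, minus strand.

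Eif2ak2, which encodes the kinase that halts translation on binding double-stranded RNA, lay below scramble in every library of both depletions. In siDDX1 it was at 8.13, 9.04 and 10.2 FPKM, against 13.5, 13.0 and 13.1 FPKM in scramble. The scramble libraries lay close to each other and well above the siDDX1 libraries, whose mean was 69.0% ± 7.74 of scramble (SD, n = 3; log2 difference -0.50, SE 0.0862). In siEXOSC3 it was at 11.2, 12.4 and 9.65 FPKM, against 13.7, 13.1 and 13.3 FPKM. These groups did not overlap, although replicate 2 came close to scramble, and the mean was 83.2% ± 10.4 (log2 difference -0.25, SE 0.0924, and -0.16 without replicate 3). The gene (NCBIM37 chr17:79251904-79281913, minus strand) overlaps the small noncoding annotations n-R5s29 and Gm16825 on the opposite strand.

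The other sensors gave little signal. Tlr3 (NCBIM37 chr8:46481019-46495962, minus strand) was at 0.0546, 0.0231 and 0.0521 FPKM in siEXOSC3 and 0.102, 0.0245 and 0.0717 FPKM in scramble, and at 0.0115, 0.0757 and 0.0840 FPKM in siDDX1 against 0.101, 0.0244 and 0.0708 FPKM. Its groups overlapped in both tables, and a difference was not detectable at this level. Ifih1 (NCBIM37 chr2:62433850-62484312, minus strand) was listed at 0 in every library of both tables, so no fold was computed.

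Mavs encodes the mitochondrial adaptor on which RIG-I and MDA5 converge. In siEXOSC3 it was at 8.74, 8.73 and 8.13 FPKM, against 11.3, 10.5 and 12.9 FPKM in scramble. The siEXOSC3 libraries were close together and all below scramble, at 73.6% ± 2.99 of its mean (SD, n = 3; log2 difference -0.40, SE 0.0878). In siDDX1 the values of 12.2, 10.4 and 12.2 FPKM overlapped the scramble values of 11.3, 10.5 and 12.8 FPKM, with a log2 difference of 0.01 (SE 0.0957). Mavs lies at NCBIM37 chr2:131059799-131073761, plus strand.

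Adar encodes the editing enzyme. It was at 17.8, 17.8 and 15.5 FPKM in siEXOSC3 and at 20.9, 20.5 and 21.7 FPKM in scramble. All siEXOSC3 libraries were lower, at 81.1% ± 6.33 of scramble (SD, n = 3; log2 difference -0.29, SE 0.0755). In siDDX1 it was at 19.2, 18.3 and 21.6 FPKM, against 20.7, 20.3 and 21.5 FPKM, and the groups overlapped at 94.5% ± 8.34. Adar (NCBIM37 chr3:89518944-89557368, plus strand) ends 2 bases from Chrnb2 on the opposite strand, and Chrnb2 was at 81.3% of scramble in siEXOSC3 and 72.3% in siDDX1. FPKM per gene sums the constitutive and the interferon-driven isoform of Adar, which were not separated.

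**Figure D2:**
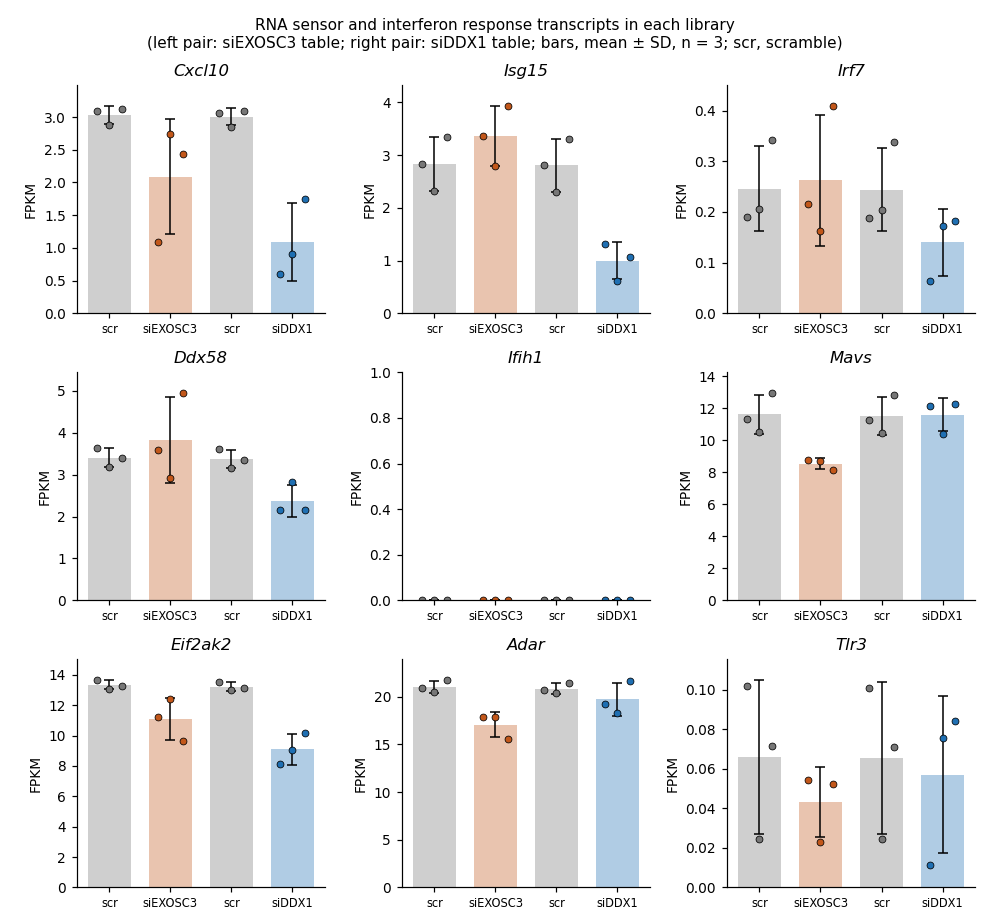
FPKM of each gene in every library (points, replicates 1 to 3 from left to right) with the mean ± SD (bars, n = 3), scramble beside siEXOSC3 and scramble beside siDDX1, on linear axes that start at 0 and differ between panels. Cxcl10, Isg15, Irf7, Ddx58 and Eif2ak2 lie below scramble in every siDDX1 library, Cxcl10, Eif2ak2, Mavs and Adar in every siEXOSC3 library, and Ifih1 is at 0 throughout.

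The fitted genes can be set beside all genes only as a description, since they were picked with these values known. In siEXOSC3 2 of 6 passed the limma threshold (adjusted p under 0.05, both lower than scramble), while 15.7% of all tested genes were decreased and 16.7% increased. In siDDX1 3 of 6 passed it (all lower), while 5.03% of all tested genes were decreased and 5.61% increased. Groups did not overlap for 4 of 6 in siEXOSC3, against 49.7% of all genes, and for 4 of 6 in siDDX1, against 34.7%. The median log2 difference of the 6 was -0.27 in siEXOSC3 and -0.44 in siDDX1, against -0.014 and -0.00059 over all genes tested. Nothing is read from these counts.

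**Figure D3:**
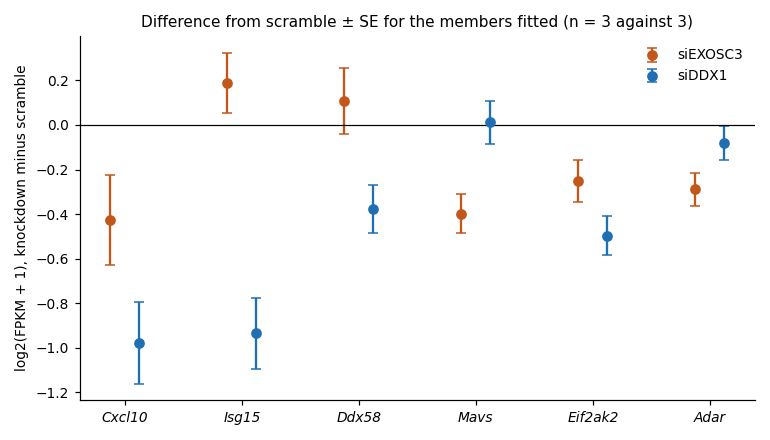
Log2(FPKM + 1) of each knockdown minus scramble (points) with the standard error of the fit (bars) for the 6 fitted genes, n = 3 against 3. Cxcl10 and Isg15 lie near -0.98 and -0.93 in siDDX1, and Mavs is at -0.40 in siEXOSC3 and 0.01 in siDDX1.

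The counts moved with single libraries, to 0 of 6 in siDDX1 without scramble replicate 1 or 3, to 1 without siDDX1 replicate 2, and in siEXOSC3 to 1 without any 1 of the scramble libraries and 4 without siEXOSC3 replicate 2. Without a filter on low FPKM the count was 0 of 9 in both tables. With each library left out in turn, the log2 difference in siDDX1 ranged from -1.20 to -0.81 for Cxcl10, from -1.05 to -0.79 for Isg15 and from -0.57 to -0.42 for Eif2ak2. In siEXOSC3 it ranged from -0.46 to -0.32 for Mavs and from -0.32 to -0.23 for Adar.

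**Figure D4:**
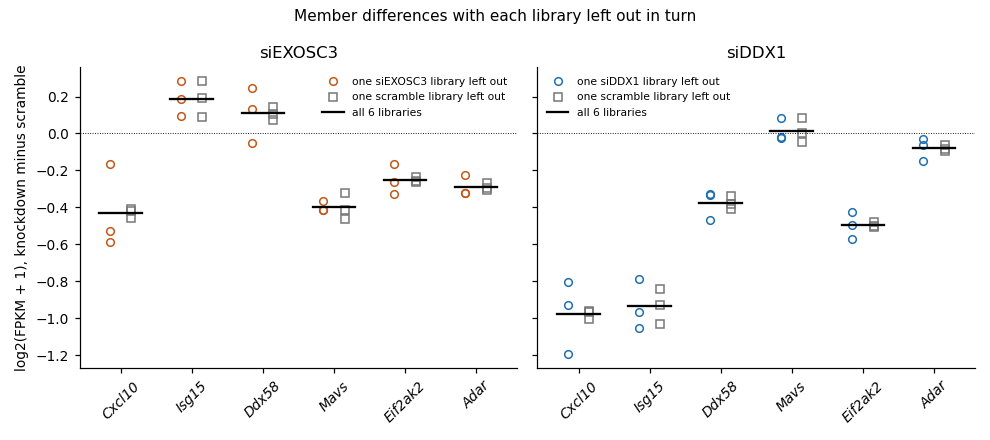
Log2(FPKM + 1) of knockdown minus scramble for the 6 fitted genes with all 6 libraries (black lines) and with 1 knockdown library (circles) or 1 scramble library (squares) left out. Cxcl10, Isg15, Ddx58 and Eif2ak2 stay below 0 in each siDDX1 fit, while Ddx58 in siEXOSC3 lies on both sides of 0.

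The genes around these 9 were taken from lists for each step of the pathway, which hold 160 other genes, 159 of them in the tables. In siEXOSC3 106 were tested, of which 13 rose and 19 fell, with a median log2 difference of -0.043. In siDDX1 103 were tested, of which 4 rose and 5 fell, with a median of 0.0080. These shares lie near those of all genes. They also hung on single libraries: in siDDX1 0 pathway genes fell without scramble replicate 1 or 3, where 20 and 23 had an unadjusted limma p under 0.05, and 17 fell and 12 rose without siDDX1 replicate 3. In siEXOSC3, 6 rose and 6 fell without scramble replicate 1, and 17 rose and 26 fell without siEXOSC3 replicate 2. Adjusted p-values below are from limma with Benjamini-Hochberg adjustment over all tested genes.

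**Figure D5:**
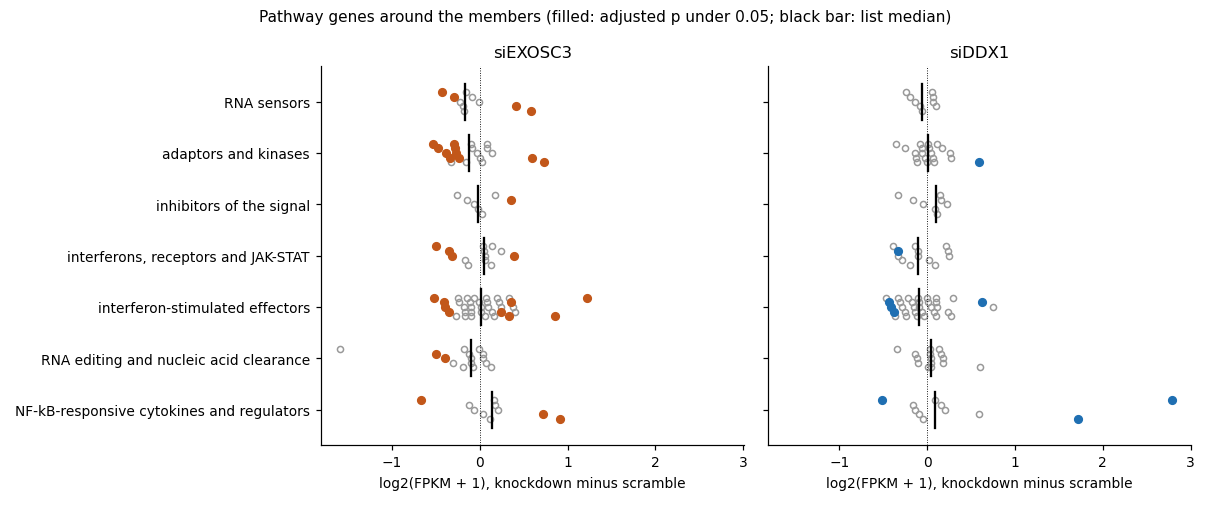
Log2(FPKM + 1) of knockdown minus scramble for each tested gene of 7 pathway lists (points), filled where the adjusted p was under 0.05, with the list median as a black bar. In siEXOSC3 8 of 20 adaptors and kinases fell, where 15.7% of all genes did, in siDDX1 0 of 20, where 5.03% did, and Lcn2 and Il6 rose in both.

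Of 21 interferon ligand genes in the tables, 17 were listed at 0 in every library of the siEXOSC3 table, and 18 throughout that of siDDX1, among them Ifnb1, Ifna1, Ifna2, Ifna4, Ifna5, Ifnl2, Ifnl3 and Ifng. Because the annotation behind the tables is not named, a listed 0 may also be a failed estimate. Ifna13 and Ifnz were the ligands above 0 in more than 1 library, both chosen after their values were seen. Ifna13 was at 0.167 to 0.473 FPKM in scramble and 0.232 to 0.583 FPKM in siEXOSC3, and at 0 to 0.179 FPKM in siDDX1 against 0.165 to 0.469 FPKM. Ifnz was at 0.144 to 0.241 FPKM in scramble and 0.184 to 0.206 FPKM in siEXOSC3, and at 0 to 0.153 FPKM in siDDX1 against 0.143 to 0.239 FPKM. The groups overlapped for both genes in both tables, and the many close copies of the Ifna genes may share reads. Of the receptors, Ifnar1, a chain of the type I interferon receptor, fell in siEXOSC3, from 9.83, 9.09 and 8.90 FPKM in scramble to 6.32, 6.14 and 6.38 FPKM (67.8% ± 1.35; log2 difference -0.50, SE 0.0743, limma adjusted p = 0.00319). This call held with each library left out. In siDDX1 Ifnar1 was at 86.2% ± 0.391 of scramble (limma adjusted p = 0.119). Its partner Ifnar2 overlapped scramble in both tables, at 103% and 90.1%.

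Of the other chains, Il10rb, shared by the interferon lambda and IL-10 receptors, rose to 134% ± 12.5 in siEXOSC3 (limma adjusted p = 0.0170, and 0.0679, 0.0516 and 0.0597 without siEXOSC3 replicate 1, scramble replicate 1 and scramble replicate 2) and was at 92.4% in siDDX1. Ifngr1, of the interferon gamma receptor, fell to 77.0% ± 8.83 in siEXOSC3 (limma adjusted p = 0.0443, called without siEXOSC3 replicate 2 but at 0.0674 to 0.141 without any other library) and was at 118% in siDDX1. Its partner Ifngr2 fell to 78.4% ± 2.17 in siDDX1 (limma adjusted p = 0.0173, and 0.0590 to 0.0846 without siDDX1 replicate 2 or any scramble library) and was at 91.4% in siEXOSC3. The differences between the tables were not tested. Ifnlr1 stayed under 0.05 FPKM.

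Downstream of the receptors, Stat2 was at 105% of scramble in siEXOSC3 and 80.2% in siDDX1, with no call in either table (limma adjusted p = 0.614 and 0.0595). Irf9, its DNA-binding partner, fell to 73.2% ± 8.77 in siEXOSC3 (limma adjusted p = 0.0373) and stood at 74.5% ± 13.7 in siDDX1 (limma adjusted p = 0.112). Only the fit without siEXOSC3 replicate 2 kept the Irf9 call, and the others gave 0.0601 to 0.122. Jak1, Jak2, Tyk2, Irf1 and Irf2 were not called in either table. In all, 1 of 13 tested interferon, receptor and JAK-STAT genes rose and 3 fell in siEXOSC3 (median 0.048), and 0 rose and 1 fell in siDDX1 (median -0.11). As shares these are 7.69% up and 23.1% down in siEXOSC3 and 7.69% down in siDDX1, beside 16.7%, 15.7% and 5.03% of all genes.

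Of 20 tested adaptors and kinases below the sensors, 8 fell and 2 rose in siEXOSC3, with a median log2 difference of -0.13. That is 40.0% down and 10.0% up, against 15.7% and 16.7% of all genes tested. Ddx41, a helicase that passes nucleic acid signals to STING, fell from 25.4, 25.7 and 25.3 FPKM to 18.1, 18.2 and 17.8 FPKM (70.9% ± 0.905, limma adjusted p = 0.00178). Chuk, the IKK-alpha kinase of the NF-kB route, fell to 75.8% ± 5.08 (limma adjusted p = 0.00791), and both calls held with each library left out. Myd88, the adaptor of most Toll-like receptors, fell to 60.5% ± 9.17 (limma adjusted p = 0.0152, and 0.0700 and 0.0584 without scramble replicates 1 and 3). Tbk1, the kinase that activates IRF3, and Irf3 itself were at 82.2% ± 3.12 and 82.9% ± 1.92 (limma adjusted p = 0.0141 and 0.0447, named after their values were seen), and Traf2, Traf6 and Tomm70a also fell. Each of these last 5 lost its call without siEXOSC3 replicate 1 and without at least 2 of the scramble libraries.

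Ticam1, the adaptor of TLR3 also called TRIF, rose in both tables. It was at 4.42, 2.87 and 5.77 FPKM in siEXOSC3 against 2.26, 2.39 and 1.77 FPKM in scramble (203% ± 67.9, limma adjusted p = 0.0214), and at 3.85, 4.27 and 3.03 FPKM in siDDX1 against 2.25, 2.38 and 1.75 FPKM (175% ± 29.8, limma adjusted p = 0.0281). All knockdown libraries were above all scramble libraries in both. The siEXOSC3 call was lost without siEXOSC3 replicate 1 (0.0715), scramble replicate 1 (0.0621) or scramble replicate 3 (0.0837), and the siDDX1 call held in 1 of 6 such fits, that without siDDX1 replicate 3. Traf5 rose in siEXOSC3 to 197% ± 50.7 (limma adjusted p = 0.0319, and 0.0698, 0.117 and 0.0863 without siEXOSC3 replicate 3, scramble replicate 1 and scramble replicate 2). In siDDX1 Ticam1 was the only call among 20 adaptors and kinases, of which 2 had an unadjusted limma p under 0.05. That is 5% up and 0% down, beside 5.61% and 5.03% of all genes.

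Of the other RNA sensors, 10 were tested in siEXOSC3, where 2 rose and 2 fell (median -0.16), and 9 in siDDX1, where limma called 0 and 1 had an unadjusted p under 0.05 (median -0.063). The siEXOSC3 shares, 20.0% each way, are near the 16.7% and 15.7% of all genes. In siDDX1 5.61% of all genes were increased and 5.03% decreased, and nothing is read from 0 of 9. One of the counted rises was Oas1c, of the oligoadenylate synthetase family, at 1.77, 1.47 and 1.94 FPKM in siEXOSC3 against 0.741, 0.929 and 0.774 FPKM in scramble. It reached the level required for the fit only through the group where it was high, so its p is not given, and near-identical relatives may share its reads. Prkra, the protein activator of PKR, rose to 136% ± 20.0 in siEXOSC3 (limma adjusted p = 0.0233, and 0.0830, 0.0813 and 0.0779 without siEXOSC3 replicate 1, scramble replicate 2 and scramble replicate 3). Dhx33 and Ddx3x fell to 72.6% ± 13.1 and 82.0% ± 6.36 (limma adjusted p = 0.0249 and 0.0196), and both were called in 2 of the 6 fits with a library left out, those without siEXOSC3 replicates 2 and 3. Ddx21 and Dhx36, which form a double-stranded RNA sensing complex with DDX1, were at 86.4% and 99.2% of scramble in siEXOSC3 and 105% and 95.7% in siDDX1, and none of these was called. Skiv2l and Ttc37, of the SKI complex that feeds the cytoplasmic exosome, were at 102% to 106% of scramble in both tables and were not called.

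Among interferon-stimulated effectors, 5 of 36 tested rose and 4 fell in siEXOSC3 (median 0.017), and 1 of 33 rose and 3 fell in siDDX1 (median -0.092). As shares these are 13.9% up and 11.1% down in siEXOSC3 and 3.03% up and 9.09% down in siDDX1, beside 16.7%, 15.7%, 5.61% and 5.03% of all genes. Differences below 0 made up 47.2% of the effectors in siEXOSC3 and 63.6% in siDDX1, beside 51.9% and 50.1% of all genes. Isg20, an RNA exonuclease, rose in siEXOSC3 from 2.49, 4.47 and 2.43 FPKM to 9.70, 6.47 and 9.45 FPKM (273% ± 57.4, log2 difference 1.22, limma adjusted p = 0.00447, held with each library left out). In siDDX1 it was at 187% ± 37.0 (limma adjusted p = 0.0501). Mx2, a dynamin-like antiviral GTPase, was at 2.38, 1.24 and 3.68 FPKM in siEXOSC3 against 0.845, 1.08 and 0.548 FPKM. Like Oas1c it entered the fit only through the group where it was high, so it is counted among the 5 but its p is not given. Bst2, or tetherin, fell from 38.3, 34.1 and 38.8 FPKM to 28.4, 27.3 and 21.1 FPKM in siEXOSC3 (limma adjusted p = 0.0106, held with each library left out) and was at 92.3% in siDDX1.

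In siDDX1 the effectors that fell were B2m, Parp9 and Lgals3bp. B2m, the light chain of MHC class I, went from 413, 411 and 409 FPKM to 313, 319 and 297 FPKM (75.4% ± 2.78, limma adjusted p = 0.0101, and 0.0654 and 0.0541 without scramble replicates 1 and 3). Parp9 was at 69.2% ± 12.4 in siDDX1 and 71.4% ± 7.96 in siEXOSC3 (limma adjusted p = 0.0452 and 0.0152), called in 1 of 6 and 4 of 6 fits with a library left out. The siDDX1 call of Parp9 held only without siDDX1 replicate 3, and the siEXOSC3 call was lost without scramble replicate 1 (0.0604) or 2 (0.0539). Ifitm3, which blocks virus entry, rose to 158% ± 29.4 in siDDX1 (limma adjusted p = 0.0195, and 0.0656 to 0.0868 without any 1 of the scramble libraries), in a family whose close copies may share reads.

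Below the level required for the fit in both tables lay 52 pathway genes, of which 13 were listed at 0 throughout both tables, and none was tested. Of the 52, 4 lay above and 3 below scramble without overlap in siDDX1, and 4 above and 2 below in siEXOSC3, with 15 listed at 0 in each table. Groups did not overlap for 34.7% of all tested genes in siDDX1 and 49.7% in siEXOSC3. Those shares are of genes above the level required for the fit, and none was computed for all genes this low. In siDDX1, Oas2, Socs1, Cxcl2 and Ccl2 were above scramble in every library and Nlrc5, Usp18 and Ifit2 below it. In siEXOSC3, Irf5, Socs1, Ifnlr1 and Mx1 were above and Nlrc5 and Ifi27l2a below. Usp18, which shuts off the interferon receptor and removes ISG15 from proteins, was at 0.321, 0.511 and 0.363 FPKM in siDDX1 against 0.907, 0.846 and 0.869 FPKM in scramble, and at 103% ± 30.2 in siEXOSC3. Socs1, another brake on the receptors, was at 136% ± 28.0 of scramble in siDDX1 and 176% ± 64.5 in siEXOSC3. The chemokine gene Ccl2 was at 0.886, 1.19 and 1.27 FPKM in siDDX1 against 0.868, 0.411 and 0.423 FPKM. Mx1, an antiviral GTPase, was at 0.934, 0.817 and 1.31 FPKM in siEXOSC3 against 0.386, 0.367 and 0.121 FPKM. These 4 were chosen after their values were seen.

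Inhibitors of the signal and genes that edit or clear nucleic acids were listed as well. Sike1, which holds back TBK1 and IKK-epsilon, rose in siEXOSC3 to 131% ± 4.97 (limma adjusted p = 0.00838, held with each library left out), the only call among 7 tested inhibitors, or 14.3% beside 16.7% of all genes increased. In siDDX1 limma called 0 of 8, with 1 at an unadjusted p under 0.05, where 5.61% of all genes were increased and 5.03% decreased. Of 15 tested editing and clearance genes, Rnaseh2b (70.1% ± 15.1) and Dicer1 (74.7% ± 6.92) fell in siEXOSC3 (limma adjusted p = 0.0250 and 0.0112). Rnaseh2b was not called without siEXOSC3 replicate 1 or any scramble library (0.0609 to 0.0891), and Dicer1 was not without scramble replicates 1 (0.0516) and 3 (0.0503). These 2 are 13.3% of the list, beside 15.7% of all genes decreased. In siDDX1 limma called 0 of the 15, with 1 at an unadjusted p under 0.05, beside 5.61% of all genes increased and 5.03% decreased.

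The NF-kB arm, which shares MAVS and feeds Cxcl10, was listed separately. Lcn2, a secreted iron-scavenging protein, rose from 3.85, 3.46 and 3.54 FPKM to 39.0, 34.7 and 21.7 FPKM in siDDX1 (log2 difference 2.79, SE 0.187, limma adjusted p = 0.00104) and to 221% ± 76.6 in siEXOSC3 (limma adjusted p = 0.0108). Il6, an inflammatory cytokine, rose to 351% ± 110 in siDDX1 and 168% ± 9.23 in siEXOSC3 (limma adjusted p = 0.00407 and 0.00127). Nfkb1, the p105 precursor of an NF-kB subunit, fell to 67.2% ± 10.8 and 59.7% ± 13.0 (limma adjusted p = 0.0280 and 0.00915). Of these calls, only that of Nfkb1 in siDDX1 was lost with a library left out (0.0867 and 0.0982 without siDDX1 replicates 1 and 2, 0.122 and 0.118 without scramble replicates 1 and 3). So Cxcl10 was low in the same siDDX1 libraries in which Lcn2 and Il6 were high, and in all 2 of 11 tested NF-kB genes rose and 1 fell there, or 18.2% and 9.09% beside 5.61% and 5.03% of all genes. In siEXOSC3 2 of 10 rose and 1 fell, or 20.0% and 10.0% beside 16.7% and 15.7%. The genes that rose were Lcn2 and Il6 in both tables. As the list was chosen with earlier results of these data known, its shares and p-values are a description.

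Genes whose pattern over the 12 library values was nearest to that of Cxcl10 were Zfp820, Zfp760 and Bambi, with root mean square log2 distances of 0.218, 0.220 and 0.229 among 11053 ranked genes. Nearest to Isg15 were Hrct1, Clu and Purb, at 0.193, 0.220 and 0.238. None of these is in the pathway lists, and likeness is a description over libraries that share their controls.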

How the data were processed

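The authors aligned paired reads to mm9 with TopHat2 version 2.1.0, used SAMtools, and ran Cuffdiff version 2.2.1 on each knockdown against scramble, per the labels and methods. They deposited FPKM per gene and library in 2 tables. The gene annotation given to Cuffdiff is not given in the sources used here. The tables hold no comparison columns and no read counts, so no interval from counts is given. The same scramble library differed between tables by a median factor of 1.00782 to 1.01188, and tests stayed within a table.

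Genes whose mean reached 1 FPKM across a table's 6 libraries were fitted on the log2(FPKM + 1) scale in R version 4.3.3 by limma (version 3.58.1), without covariates and with an intensity trend in eBayes, two-sided, with Benjamini-Hochberg adjustment over all genes and a threshold of 0.05. Differences on this scale understate changes of low genes. The smallest p an exact permutation test of 3 against 3 libraries allows is 0.1. Run on simulated data in which 200 genes had a log2 change of 1, the fit called 191 (95.5%), with 10 false calls of 11242 genes, for siEXOSC3 and 188 (94%), with 4 of 11104, for siDDX1. The changed genes were drawn above a minimum level, and the noise was independent between libraries. Most differences described here are smaller than 1, so these rates do not carry over to them.

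The members and lists were chosen with earlier results of these data known. The genes named are the members, Exosc3, Ddx1, the interferons and their receptors, Ticam1, Ddx21, Dhx36, Skiv2l and Ttc37. In addition, per list and knockdown at most 3 called genes without overlap were taken by size of change (all where at most 5 were called), together with the 3 genes nearest in pattern to Cxcl10 and Isg15, by root mean square difference of log2(FPKM + 1) minus the scramble mean. Further list genes were named after their values were seen. Positions came from GENCODE vM1 on NCBIM37 (the sequence of mm9) and promoter windows from RefSeq. Alternatives tried were leaving out each library, blocking on the replicate number, dropping the intensity trend, quantile normalization, median centring, a 0.1 pseudocount, and a minimum mean of 5 FPKM or none. Matplotlib version 3.10.9 drew the figures. The DRIP-seq part of the study was not analysed here.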

Additional observations from a re-analysis of the deposited data

Results flagged for a closer look

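Lgals3bp, an interferon-stimulated secreted glycoprotein gene, drew attention because all 3 libraries of one depletion lay above scramble and all 3 of the other below it. It was at 40.9, 34.6 and 44.4 FPKM in siEXOSC3 against 30.2, 30.3 and 32.2 FPKM in scramble (log2 difference 0.35, limma adjusted p = 0.0223), and at 25.9, 23.8 and 20.6 FPKM in siDDX1 against 29.9, 30.1 and 31.8 FPKM (log2 difference -0.38, limma adjusted p = 0.0314). The difference between the depletions itself was not tested. The siEXOSC3 call was lost without siEXOSC3 replicate 1 or any scramble library (0.0564 to 0.0844), and the siDDX1 call without siDDX1 replicate 2 or any scramble library (0.0826 to 0.126).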

How the results depend on the processing

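All genes changed numbered 3644 in siEXOSC3 and 1182 in siDDX1. Without a filter on low FPKM they were 1435 and 176, the pathway genes that rose 3 and 1 (from 13 and 4) and those that fell 5 and 1 (from 19 and 5). Among pathway genes, Oas1c, Sike1, Il6, Ifnar1, Tbk1, Chuk, Ddx41 and Daxx were still called in siEXOSC3 and Lcn2 and B2m in siDDX1, so all other calls of pathway genes were lost, including those of Isg20, Bst2 and Lcn2 in siEXOSC3 and of Il6 in siDDX1. The cause was not tested. Replicate numbers did not pair the libraries in siEXOSC3, where same-numbered deviations correlated at 0.0346, -0.310 and -0.126. In siDDX1 they correlated at -0.0121, 0.379 and 0.372. There replicates 2 and 3 each correlated most with the scramble library of the same number, and replicate 1 did not. With a replicate block, 9 pathway genes rose and 12 fell in siEXOSC3, where 2449 genes changed, and 6 rose and 9 fell in siDDX1, where 1893 genes changed. Under it 1 of 6 members passed in siEXOSC3 and 3 of 6 in siDDX1. The block ended the siEXOSC3 calls of Ticam1, Ifngr1, Irf9, Dhx33, Ddx3x, Mx2, Traf2, Traf6, Irf3, Ifitm2 and H2-D1 (adjusted p = 0.0504 to 0.107, limma) and added, among others, Jak2, Irf2, Isg20 and Dicer1 in siDDX1 (0.0146 to 0.0498). With each library left out, the genes changed ranged from 1607 to 4886 in siEXOSC3 and from 163 to 3527 in siDDX1, the pathway genes that rose from 6 to 17 and from 2 to 12, and those that fell from 6 to 26 and from 0 to 17. Without the intensity trend 3455 genes changed in siEXOSC3 and 1034 in siDDX1, and 2 of 6 and 4 of 6 members passed. A mean of at least 5 FPKM left 3 members fitted. A pseudocount of 0.1 moved the siDDX1 log2 difference of Cxcl10 to -1.50 and of Isg15 to -1.44. That pseudocount, quantile normalization and median centring shifted the median of all genes by less than 0.1 on the log2 scale. Among the other named genes, quantile normalization ended the siEXOSC3 calls of Mx2 and Traf5, and median centring those of Irf3, Ifngr1 and Traf6 in siEXOSC3 and of Parp9 in siDDX1, while centring added Isg20 in siDDX1. Irf7 and Tlr3 lay under the level required for the fit, Ifih1 was listed at 0, and the depth reached is unknown, so no difference in these genes was tested.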
